A study of Homo sapiens with 4 samples.

Results

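The genes described here encode the non-collagen part of the extracellular matrix: proteoglycans, adhesive and elastic glycoproteins, basement membrane proteins, the lysyl oxidases that crosslink matrix fibres and the enzymes that make hyaluronan. The 56 genes were listed by name and make up 56 of the 18132 genes measured. Each gene was read on 1 probe set, a group of array probes for 1 transcript region, chosen as the brightest of the gene over all 4 arrays. All 56 had at least 1 probe set that names no other gene.

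The cells studied were U87MG, an established line of human glioblastoma, and their total RNA was measured on human PrimeView arrays. There were 2 samples of cells transfected with a vector for overexpression of NeuroD2, a basic helix-loop-helix transcription factor of neuronal differentiation, and 2 samples of cells transfected with the PCMV control vector. Cells of both groups were kept at 0.2% oxygen and harvested 48 hours after transfection. The labels call the 2 samples of each group biological replicates and do not describe separate cultures, so p-values measure only the spread between these samples, which may be technical. The share of cells that took up the vector is not given in the sources used here, and 1 cell line stands for glioblastoma cells. The comparison asks which transcripts differ when NeuroD2 is overexpressed in hypoxic glioma cells.

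Matrix proteins form the scaffold to which cells attach, and their proteoglycan and hyaluronan chains hold water and bind growth factors. Fibronectin, tenascins and laminins engage integrins at the cell surface, nidogens link laminin networks to collagen in basement membranes, and fibrillins with fibulins and elastin form elastic fibres. Brain matrix is poor in fibrillar protein and rich in hyaluronan and hyaluronan-binding proteoglycans. Glioblastomas are known for added fibronectin, tenascin-C, osteopontin and hyaluronan, which surround and support invading cells.

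With the NeuroD2 vector, 2 of the 56 matrix genes rose and 9 fell (limma over all genes, Benjamini-Hochberg adjusted p under 0.05), while 45 did not pass. That is 19.6% of the matrix genes, beside 4.77% of all genes tested. The genes were listed with earlier results of these data known, so these shares are descriptions and do not test the list. In each direction the shares of all genes were 1.81% higher and 2.96% lower, that is 328 and 536 genes, or 437 and 452 with each array centred on its median. For the matrix genes that scaling gave 3 higher and 9 lower. The hyaluronan synthase gene HAS2 and the tenascin gene TNC rose. The genes that fell were LUM, EFEMP1, NID2, CCN2, FN1, GPC6, MATN2, LOXL1 and TGFBI, by 0.54 to 1.19 on the log2 scale. The median difference over the 56 genes was -0.06, with 33 differences below 0 and 23 above. Over all genes, 9062 differences were below 0 and 9068 above. The median absolute difference was 0.20 for the matrix genes and 0.11 for all genes.

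Of the 56 genes, 33 had a mean at or above the median of all genes. Of these 33, 10 passed (30.3%), beside 7.74% of all genes at or above that median. Of the 23 dimmer matrix genes, 1 passed (4.35%). The groups did not overlap in 37 of the 56 genes, or 66.1%, beside 50.8% of all genes. At or above the median the shares were 78.8% of the matrix genes and 64.5% of all genes. An unadjusted p under 0.05 in limma was reached by 24 of the 56 genes, or 42.9%, beside 21.8% of all genes. At or above the median these shares were 57.6% and 30.6%. The calls rested on all 4 arrays. Each array was also left out in turn, which lost most or all of the matrix calls. In each of these fits the single array left in a group was given the spread of the other group. The 11 differences kept their sign with every array left out. That outcome was fixed beforehand, because the groups did not overlap in any of the 11 genes.

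**Figure D1:**
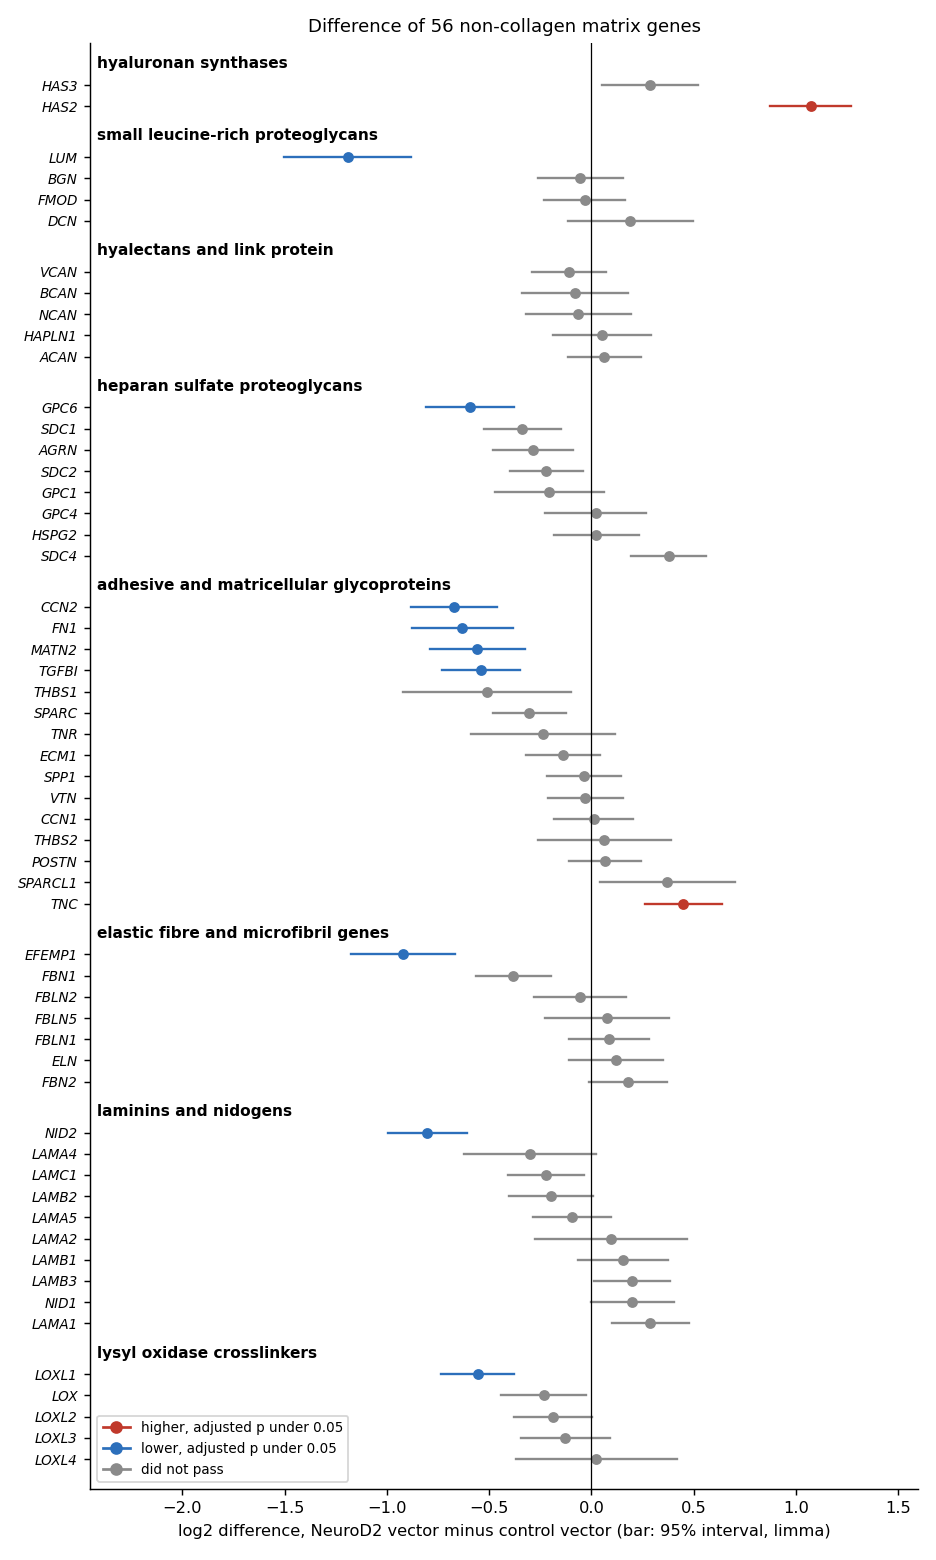
Each point is the log2 difference of 1 gene, NeuroD2 vector minus control vector, and each bar its 95% interval from limma, with 2 arrays per group. The 56 genes are grouped by role, red marks the 2 that rose, blue the 9 that fell and grey the 45 that did not pass. HAS2 lies farthest to the right at 1.07 and LUM farthest to the left at -1.19.

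Several facts of the arrays stand beside these counts. The deposited values are log2 probe set values between 2.65 and 14.3, and no detection calls were used, so no gene is called absent. Array pairs of 1 group correlated across genes at 0.999 (NeuroD2) and 0.998 (control), and pairs from different groups at 0.995. NEUROD2 itself read 7.37 and 7.82 on its brightest probe set with the NeuroD2 vector, against 5.46 and 5.35 with the control vector, a difference of 2.19 (adjusted p = 0.0044). Its other probe sets differed by -0.07 and -0.21 and did not pass. The 18 hybridisation spike probe sets averaged 10.10 and 10.13 on the NeuroD2 arrays, against 9.56 and 9.90 on the control arrays. The 24 poly-A spike probe sets averaged 7.96 and 8.03 on the NeuroD2 arrays, against 6.95 and 7.98 on the control arrays, so control replicate 1 stood apart. Of these 24, 13 were higher on both NeuroD2 arrays. Their mean difference over all 24 was 0.53, or 0.02 without control replicate 1. The part of these spike differences in the results was not tested.

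The labelled cell type was checked on its markers. VIM, which encodes the intermediate filament vimentin, read 14.14 and 14.15 with the NeuroD2 vector, against 14.12 and 14.18 with the control vector. The hyaluronan receptor gene CD44 read 12.84 and 12.86 with the NeuroD2 vector, against 12.74 and 12.92 with the control vector. GFAP, the astrocyte filament gene, read between 6.07 and 6.35 on the 4 arrays, and SOX2, a neural stem cell factor gene, between 4.36 and 4.73. Of the 11 astroglial and glioma markers, SOX9 (-1.01) and CHI3L1 (-0.51) fell, and 9 did not pass. Among these 9, OLIG2 (0.39) and GFAP (0.24) were higher at an unadjusted p under 0.05 in limma. Of 10 fibroblast and mural cell markers, COL1A1 (-0.62), PDGFRB (-0.55) and FAP (-0.39) fell and 7 did not pass. Among these 7, TAGLN (0.21) was higher at an unadjusted p under 0.05. The list averaged 6.19 and 6.19 with the NeuroD2 vector, against 6.38 and 6.30 with the control vector. Of 12 neuronal markers, MAP2 (-1.23) and SNAP25 (-0.59) fell and 10 did not pass. Among these 10, NEFM (0.25) and STMN2 (0.21) were higher and SYT1 (-0.45) lower at an unadjusted p under 0.05. None of 7 endothelial and 8 microglial markers passed in limma, while 2 of each list had an unadjusted p under 0.05. The 2 endothelial ones were higher, and of the microglial ones 1 was higher and 1 lower. The neuronal list averaged 5.45 and 5.43 with the NeuroD2 vector, against 5.62 and 5.64 with the control vector. In the same order, the astroglial and glioma list averaged 6.88 and 6.92 against 7.01 and 6.93. The endothelial list averaged 4.92 and 4.80 against 4.79 and 4.70, and the microglial list 5.35 and 5.30 against 5.30 and 5.21. Beside these markers, 4.77% of all genes passed and 21.8% had an unadjusted p under 0.05. Whether shifts in these markers bear on the matrix genes was not tested. In bulk RNA, fewer cells of a type and less RNA per cell cannot be told apart.

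Promoter sequences from RefSeq (GRCh38.p14) are shown for 4 of the matrix genes that passed, picked because they hold a motif searched for: NeuroD2 binds E-box sequences and TEAD factors, known regulators of CCN2, bind GGAATG. Promoter entries were found for 43 of the 56 genes. Each line gives the 250 bases before the annotated start, 5′ to 3′ on the gene's strand. Capitals mark every E-box (CANNTG, which reads the same class on both strands and includes CAGATG and CAGCTG) and every GGAATG on either strand.
NID2 (chr14:52069060-52069309, minus strand): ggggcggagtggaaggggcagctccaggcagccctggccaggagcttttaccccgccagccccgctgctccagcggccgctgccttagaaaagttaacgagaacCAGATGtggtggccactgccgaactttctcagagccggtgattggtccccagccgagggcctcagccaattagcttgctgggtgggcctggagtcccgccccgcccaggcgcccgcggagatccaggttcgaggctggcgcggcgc
LOXL1 (chr15:73926212-73926461, plus strand): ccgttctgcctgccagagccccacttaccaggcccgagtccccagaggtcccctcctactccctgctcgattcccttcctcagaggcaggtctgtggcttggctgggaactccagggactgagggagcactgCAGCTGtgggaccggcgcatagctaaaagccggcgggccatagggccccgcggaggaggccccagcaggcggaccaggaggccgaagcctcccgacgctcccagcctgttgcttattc
CCN2 (chr6:131951373-131951622, minus strand): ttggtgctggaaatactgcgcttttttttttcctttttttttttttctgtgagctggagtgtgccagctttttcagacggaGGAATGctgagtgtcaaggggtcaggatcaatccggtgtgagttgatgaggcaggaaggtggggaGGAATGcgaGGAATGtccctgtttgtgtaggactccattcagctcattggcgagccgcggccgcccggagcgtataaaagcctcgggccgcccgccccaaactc
TNC (chr9:115118158-115118407, minus strand): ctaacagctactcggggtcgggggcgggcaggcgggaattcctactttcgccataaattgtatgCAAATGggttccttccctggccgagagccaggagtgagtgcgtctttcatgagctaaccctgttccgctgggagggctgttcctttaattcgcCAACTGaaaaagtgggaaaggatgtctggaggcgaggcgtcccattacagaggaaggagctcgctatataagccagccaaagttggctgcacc

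The NID2 window held 1 E-box, CAGATG, starting 146 bases before the start, and the LOXL1 window held 1, CAGCTG, starting 118 bases before it. The TNC window held CAAATG at 186 bases and CAACTG at 93 bases. CCN2 held no E-box in these 250 bases and 3 copies of GGAATG, at 169, 104 and 95 bases. These matches are descriptions of the sequence. Of 35116 promoters in the table, 61.8% held a CANNTG, 12.2% a CAGATG on either strand, 14.0% a CAGCTG and 11.9% a GGAATG on either strand. Of the 43 matrix genes with an entry, 18 held a CANNTG (41.9%), 3 a CAGATG (6.98%), 4 a CAGCTG (9.30%) and 8 a GGAATG (18.6%), counting a gene when any of its listed starts held the motif. Of the 9 genes that fell, 6 had an entry. A CANNTG was held by 2 (NID2 and LOXL1, 33.3%) and a GGAATG by 1 (CCN2), while FN1, TGFBI and GPC6 held neither.

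Hyaluronan is a long unsulfated sugar chain that HAS enzymes extrude from the plasma membrane. HAS2, which makes very long chains, read 8.74 and 8.79 with the NeuroD2 vector, against 7.64 and 7.75 with the control vector (log2 probe set values, as all levels below). Both NeuroD2 arrays were above both control arrays, and HAS2 rose by 1.07 (95% interval 0.88 to 1.27, 2.10-fold, adjusted p = 0.0052). With a NeuroD2 array left out, and the spread then taken from the control arrays alone, the adjusted p-values were 0.0456 without replicate 1 and 0.0481 without replicate 2, and HAS2 did not pass without either control array. All 3 HAS2 probe sets rose when tested on their own, by 1.07 to 1.14. HAS3, whose product makes shorter chains, differed by 0.29 (interval 0.05 to 0.52, adjusted p = 0.157), and its 4 probe sets ran from -0.16 to 0.29. Whether HAS2 and HAS3 differed in response was not tested.

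Other hyaluronan genes were taken from a separate list of receptors and degrading enzymes, of which 10 were measured. TNFAIP6, which encodes a protein that remodels hyaluronan with inter-alpha-inhibitor, read 7.74 and 7.64 with the NeuroD2 vector, against 7.24 and 7.31 with the control vector, and rose by 0.42 (adjusted p = 0.0468). It did not pass when every probe set was tested on its own (adjusted p = 0.0634). CEMIP, which encodes a hyaluronan-binding protein needed for hyaluronan breakdown, read 8.46 and 8.42 with the NeuroD2 vector, against 9.38 and 9.40 with the control vector, and fell by 0.95 (adjusted p = 0.0055). The groups did not overlap for either gene. The other 8 did not pass. Among them, CEMIP2, a relative of CEMIP, differed by 0.43 on the brightest of its 6 probe sets (interval 0.19 to 0.66, adjusted p = 0.0679). CD44 differed by 0.03.

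**Figure D2:**
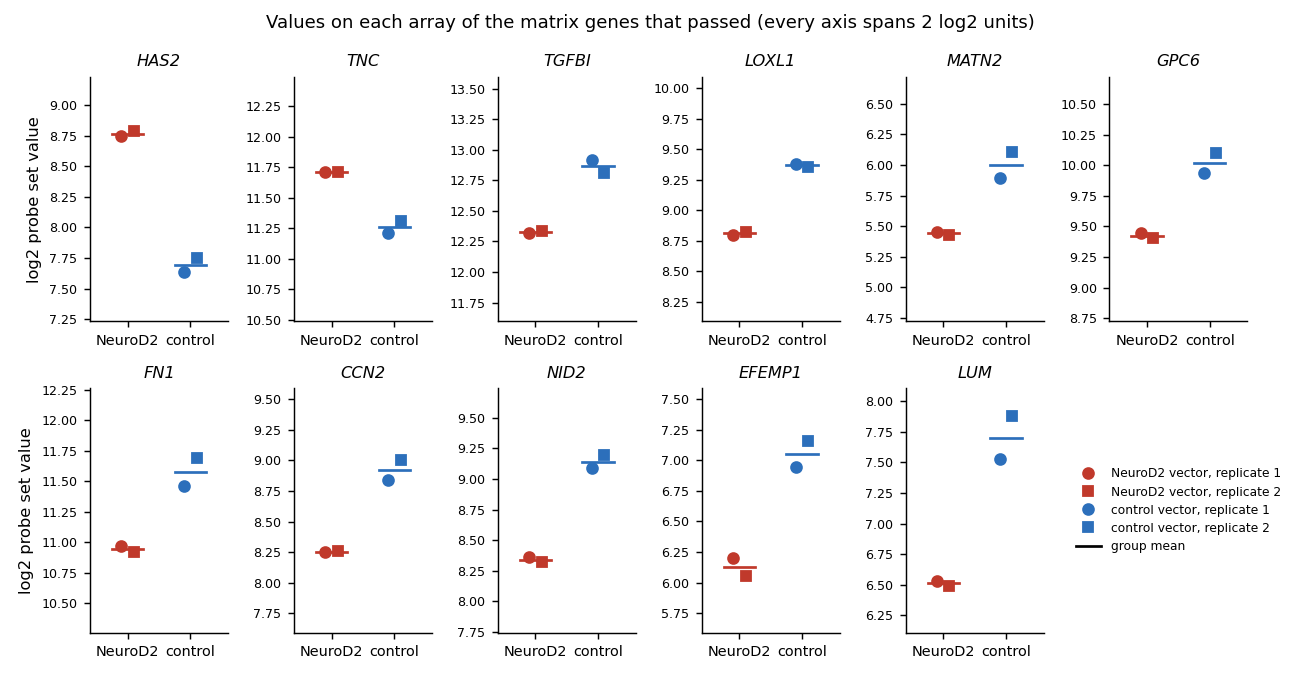
Log2 probe set values on each array for the 11 matrix genes that passed, NeuroD2 vector left and control vector right in each panel, with circles for replicate 1, squares for replicate 2 and lines for the group means. Every axis spans 2 log2 units, so the panels compare differences and not levels. HAS2 and TNC are above their controls on both NeuroD2 arrays, and the other 9 genes are below on both.

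Among the small leucine-rich proteoglycans, which bind collagen fibrils and set their spacing, 1 of 4 fell. LUM, the gene of lumican, read 6.53 and 6.49 with the NeuroD2 vector, against 7.53 and 7.88 with the control vector. Both NeuroD2 values were below both control values, while the controls themselves differed by more than the NeuroD2 arrays did. LUM fell by 1.19 (95% interval -1.50 to -0.88, 0.438 times the control level, adjusted p = 0.0114), and by 1.02 without control replicate 2. It is read on 1 probe set, so no second one could be compared. DCN, the gene of decorin, differed by 0.19, BGN, that of biglycan, by -0.05 and FMOD, that of fibromodulin, by -0.03. Their intervals ran from -0.26 to 0.50 in all, and none passed.

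The hyalectans are large chondroitin sulfate proteoglycans that bind hyaluronan, and HAPLN1 encodes the link protein that fastens them. None of the 5 genes passed in limma, and none had an unadjusted p under 0.05. VCAN, which encodes versican, read 10.83 and 10.88 with the NeuroD2 vector, against 11.00 and 10.94 with the control vector. All 9 VCAN probe sets differed downward, from -0.40 to -0.07, and none of them passed on its own. Differences of the brain hyalectan genes BCAN (-0.08) and NCAN (-0.06), of the cartilage gene ACAN (0.06) and of HAPLN1 (0.05) were smaller than 0.1. Their 95% intervals reached from -0.34 to 0.29. Their means over the arrays were 4.21, 4.63, 5.33 and 3.88 in this order, below the median of all genes, 6.56. At such levels a small difference says little about response.

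Of the 8 heparan sulfate proteoglycans, which hold growth factors at the cell surface or in basement membranes, 1 fell. GPC6, a membrane-anchored glypican gene, read 9.44 and 9.41 with the NeuroD2 vector, against 9.93 and 10.10 with the control vector. It fell by 0.59 (95% interval -0.81 to -0.38, 0.663 times the control level, adjusted p = 0.0265). Its other 3 probe sets did not pass and ran from -0.45 to 0.05, and averaging all 4 gave a fall of 0.35. The glypican genes GPC1 (-0.21) and GPC4 (0.02) did not pass.

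The syndecan genes, which encode transmembrane co-receptors, lay on both sides of 0. SDC4 read 10.15 and 10.21 with the NeuroD2 vector, against 9.83 and 9.78 with the control vector. The difference of 0.38 had an interval of 0.19 to 0.56 and an adjusted p of 0.0511, just outside the threshold, and it passed with centred arrays (adjusted p = 0.0374), quantile normalization (0.0439) or its probe sets averaged (0.0291), but not with every probe set tested on its own (0.0688). SDC1 read 10.71 and 10.76 with the NeuroD2 vector, against 11.11 and 11.03 with the control vector, a difference of -0.34 with an adjusted p of 0.0666, or 0.0414 with its probe sets averaged. SDC2 differed by -0.22 (adjusted p = 0.155). For each of these genes every probe set, 3 for SDC4, 3 for SDC1 and 6 for SDC2, had the sign of the one used. Whether SDC4 and SDC1 differed in response was not tested. The basement membrane proteoglycan genes AGRN (-0.28, adjusted p = 0.111) and HSPG2 (0.02) did not pass.

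The adhesive and matricellular glycoproteins held 5 of the 11 genes that passed, with 4 of 15 lower and 1 higher. FN1 encodes fibronectin, the main adhesive protein of provisional matrix. It read 10.97 and 10.92 with the NeuroD2 vector, against 11.46 and 11.69 with the control vector, and fell by 0.63 (95% interval -0.88 to -0.38, adjusted p = 0.0318). All 8 FN1 probe sets differed downward, from -0.83 to -0.23, and 7 of them passed on their own. TGFBI, a secreted integrin-binding protein gene, read 12.32 and 12.33 with the NeuroD2 vector, against 12.92 and 12.81 with the control vector. It fell by 0.54 (adjusted p = 0.0248), and its 4 probe sets all passed, between -0.59 and -0.54. MATN2, which encodes the filament-forming adaptor matrilin-2, read 5.45 and 5.43 with the NeuroD2 vector, against 5.89 and 6.10 with the control vector. It fell by 0.56 on its 1 probe set (adjusted p = 0.0370). Alone among the genes that passed, MATN2 had a mean (5.72) below the median of all genes, 6.56. It was therefore not in the fit with a filter on low values.

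TNC, the gene of the anti-adhesive hexameric glycoprotein tenascin-C, rose while FN1 fell. It read 11.71 and 11.71 with the NeuroD2 vector, against 11.21 and 11.31 with the control vector, a difference of 0.45 (95% interval 0.26 to 0.64, 1.37-fold, adjusted p = 0.0378). Its 4 probe sets differed by 0.45 to 0.63. When every probe set was tested on its own, the other 3 passed and the brightest had an adjusted p of 0.0505. TNR, the tenascin-R gene of neural tissue, differed by -0.24 (interval -0.59 to 0.11) and did not pass.

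CCN2 and CCN1 encode related matricellular proteins, both known targets of YAP and TEAD factors. CCN2 read 8.25 and 8.26 with the NeuroD2 vector, against 8.84 and 9.01 with the control vector, and fell by 0.67 (95% interval -0.88 to -0.46, 0.628 times the control level, adjusted p = 0.0189). Its 3 probe sets ran from -0.67 to -0.57, of which 2 passed. CCN1 read 8.14 and 8.09 with the NeuroD2 vector, against 8.05 and 8.16 with the control vector, so its groups overlapped. Its difference was 0.01 with an interval of -0.18 to 0.21, and its second probe set differed by 0.07. The difference in response between CCN2 and CCN1 was not tested.

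The remaining genes of this group did not pass. SPP1, which encodes osteopontin, read 12.71 and 12.75 with the NeuroD2 vector, against 12.79 and 12.74 with the control vector, and its 6 probe sets differed by -0.11 to -0.01. SPARC, the gene of osteonectin, differed by -0.30 (interval -0.48 to -0.12, adjusted p = 0.0788), with all 8 probe sets below 0. SPARCL1, which encodes a related protein, differed by 0.37 on its brightest probe set (adjusted p = 0.186), by 0.01 and 0.07 on the others and by 0.15 on average. The thrombospondin gene THBS1 differed by -0.51 on its brightest probe set (adjusted p = 0.155), whereas its other 4 probe sets differed by -0.08 to 0.10. THBS2 (0.06), POSTN for periostin (0.07), VTN for vitronectin (-0.03) and ECM1 (-0.14) had smaller differences.

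**Figure D3:**
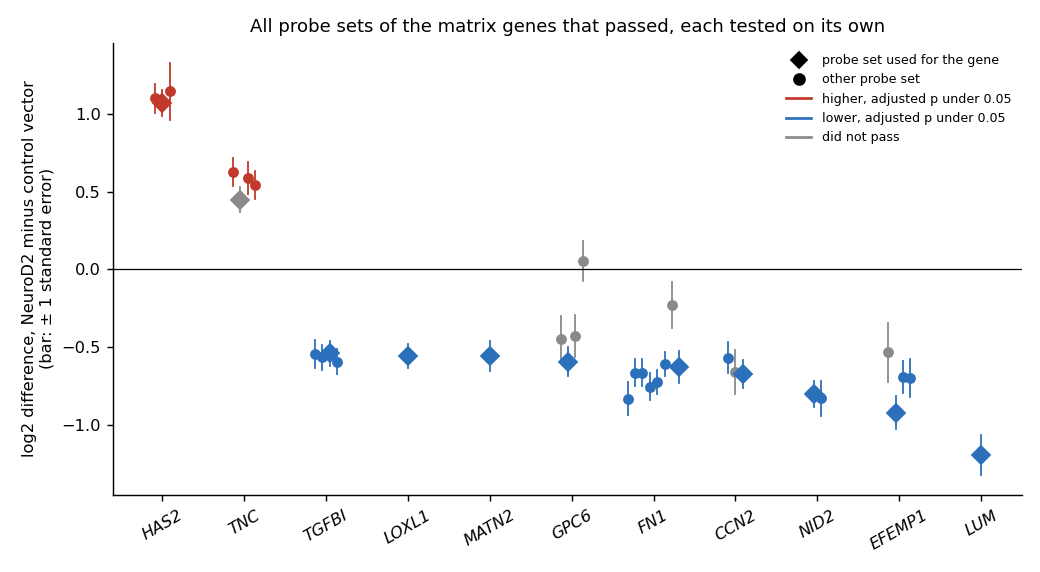
Log2 difference, NeuroD2 vector minus control vector, of every probe set of the 11 genes that passed, with bars of 1 standard error from the fit over all probe sets. Diamonds mark the probe set used for the gene, and grey those that did not pass on their own. The 8 FN1 points all lie below 0 and the 4 TNC points all above, while 1 of 4 GPC6 points lies at 0.05.

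In 8 of the 11 genes that passed there was more than 1 probe set. All probe sets had the same sign in 7 of these, GPC6 being the exception. Of the 41 genes with several probe sets that did not pass, 20 had a single sign throughout. The probe set used carried a suffix, s_at or x_at, of designs that may cross-match other transcripts for 5 of the 11, namely LUM, FN1, TGFBI, MATN2 and CCN2.

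Elastic fibres consist of an elastin core on fibrillin microfibrils, with fibulins as adaptors, and 1 of 7 such genes fell. EFEMP1, which encodes fibulin-3, read 6.20 and 6.06 with the NeuroD2 vector, against 6.94 and 7.16 with the control vector. It fell by 0.92 (95% interval -1.18 to -0.67, 0.527 times the control level, adjusted p = 0.0140). Its 4 probe sets all differed downward, from -0.92 to -0.53, and 3 passed. The fibrillin gene FBN1 read 9.58 and 9.63 with the NeuroD2 vector, against 9.95 and 10.02 with the control vector, a difference of -0.38 that lay just outside the threshold (adjusted p = 0.0509). FBN1 passed with quantile normalization (adjusted p = 0.0484) and not with centred arrays (0.0665) or with its probe sets averaged (0.139). FBN2, the other fibrillin gene, differed by 0.18 on its brightest probe set and by -0.27 to -0.02 on its other 4. ELN, the elastin gene, differed by 0.12, and the fibulin genes FBLN1, FBLN2 and FBLN5 by 0.09, -0.05 and 0.07.

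Among the laminins and nidogens of basement membranes, 1 of 10 genes fell. NID2, the nidogen-2 gene, read 8.36 and 8.32 with the NeuroD2 vector, against 9.09 and 9.20 with the control vector. It fell by 0.80 (95% interval -0.997 to -0.61, 0.573 times the control level, adjusted p = 0.0102), and both of its probe sets passed. NID1, the gene of nidogen-1, differed by 0.20 (interval 0.00 to 0.40, adjusted p = 0.231), with levels between 4.23 and 4.51 on the 4 arrays. The difference between NID2 and NID1 in response was not tested.

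The differences of the laminin chain genes lay on both sides of 0 and none passed. The largest differences were those of LAMA4, the alpha-4 chain gene (-0.30, interval -0.62 to 0.02), and LAMA1, the alpha-1 chain gene (0.29, interval 0.10 to 0.48). LAMA4 rested on NeuroD2 replicate 2, since it read 6.26 and 5.88 with the NeuroD2 vector, against 6.36 and 6.38 with the control vector, and differed by -0.11 without that array. Its other 3 probe sets differed by -0.59, 0.03 and 0.21, and the mean of all 4 was -0.16. The beta-1 and gamma-1 chains occur together in most laminins. LAMB1 differed by 0.15, with a second probe set at -0.09, and LAMC1 by -0.22 (adjusted p = 0.164). LAMB2 (-0.20), LAMB3 (0.20), LAMA2 (0.10) and LAMA5 (-0.09) completed the chains.

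Lysyl oxidases oxidise lysines of collagen and elastin so that the fibres crosslink, and 1 of 5 of their genes fell. LOXL1, whose product acts on elastic fibres, read 8.80 and 8.82 with the NeuroD2 vector, against 9.38 and 9.35 with the control vector. Its replicates lay close together in both groups, and it fell by 0.56 (95% interval -0.73 to -0.38, 0.680 times the control level, adjusted p = 0.0194). With single arrays left out its difference ran from -0.57 to -0.54. LOX, a hypoxia-inducible gene, read 9.44 and 9.57 with the NeuroD2 vector, against 9.70 and 9.78 with the control vector, a difference of -0.23 that did not pass (adjusted p = 0.184). LOXL2 (-0.19), LOXL3 (-0.13) and LOXL4 (0.03) did not pass.

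**Figure D4:**
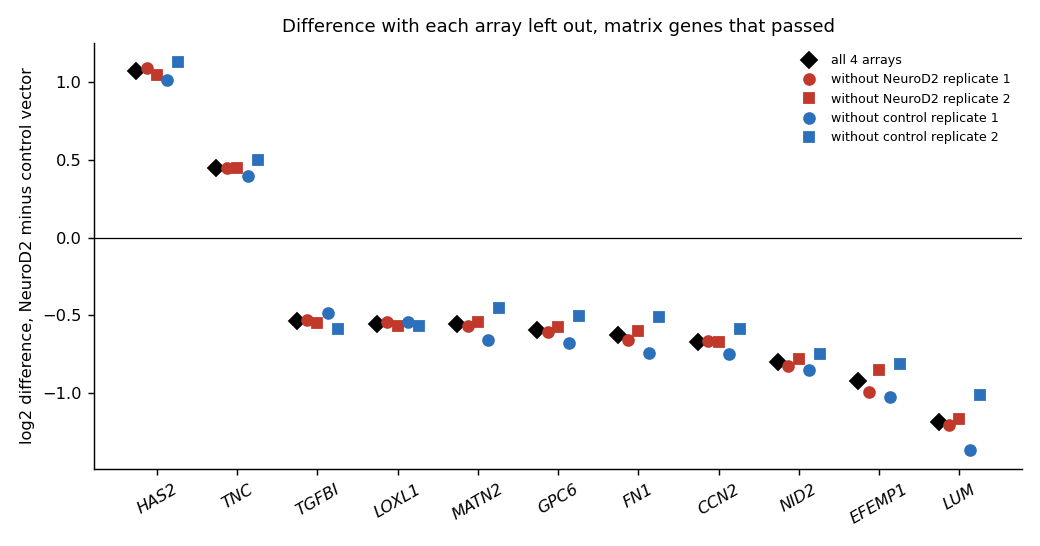
Log2 difference, NeuroD2 vector minus control vector, of the 11 genes that passed, with all 4 arrays (diamonds) and with each array left out in turn. No point crosses 0, and none could, because the groups did not overlap in any of these genes. LUM ranges most, from -1.37 without control replicate 1 to -1.02 without control replicate 2, and LOXL1 stays between -0.57 and -0.54.

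Matrix genes outside the 56 were examined in separate lists of 129 measured genes, of which 1 rose, 7 fell and 121 did not pass, or 6.20% called, near the 4.77% of all genes. The median difference of the 129 genes was -0.01. The genes below are named one by one and make no statement about their lists. Of 16 genes for collagen processing and transglutaminase, 2 fell. PCOLCE2, which encodes an enhancer of procollagen cleavage, read 5.77 and 5.96 with the NeuroD2 vector, against 6.81 and 6.96 with the control vector (difference -1.02, adjusted p = 0.0102). P3H2, a collagen prolyl hydroxylase gene, fell by 0.85 (adjusted p = 0.0149). The list included the genes of lysyl hydroxylases and of the collagen chaperone HSP47. Without centring of the arrays, 13 of its 16 differences were below 0, beside 9062 of all 18132 genes. Among the 9066 genes at or above the median level, 5114 differences were below 0. The list was chosen with earlier results known, so its count is a description.

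Of 36 other matrix glycoprotein genes, 3 fell. IGFBP7, which encodes a secreted IGF-binding protein of vessel walls, read 8.98 and 8.94 with the NeuroD2 vector, against 9.89 and 10.02 with the control vector, and differed by -0.9995, a fall (adjusted p = 0.0069). CCN3, a relative of CCN2, and LTBP3, a carrier of latent TGF-beta, both fell by 0.43 (adjusted p = 0.0409 and 0.0418). Averaged over its probe sets, LTBP3 did not pass (-0.38, adjusted p = 0.0709). Of 44 genes for glycosaminoglycan synthesis and sulfation, only CSGALNACT1 fell, an enzyme that starts chondroitin sulfate chains (-0.74, adjusted p = 0.0236). Its relative CSGALNACT2 read 10.82 and 10.75 with the NeuroD2 vector, against 10.04 and 10.36 with the control vector. That difference of 0.59 went the other way and did not pass (adjusted p = 0.0537). None of 23 other proteoglycan core protein genes passed in limma, and 3 had an unadjusted p under 0.05. Leaving out each array in turn lost most or all of the calls among the 129 genes.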

How the data were processed

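RNA of 2 NeuroD2-vector and 2 control-vector samples was measured on PrimeView arrays with biotin label (3' IVT Express kit), per the labels' protocols. The authors deposited 1 table of 49395 probe sets, whose values were taken as log2 and as normalized between arrays by the authors before deposit. This reading rests on their range (2.65 to 14.3) and near-equal medians. For the authors' software, background correction and normalization, the sources used here give no name. No sequencing depth applies, and the number of arrays limits the precision.

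Of the probe sets, 44988 carried 1 platform gene symbol, 1832 several and 2473 none, and 102 were Affymetrix controls. Only those with 1 symbol were used, giving 18132 genes, each read on its brightest probe set. Entrez identifiers matched the RefSeq gene table for 44961 probe sets, and 0 symbols changed. Some listed related genes are not analysed here (129 of 137 names matched).

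Groups were fitted with limma 3.58.1 in R 4.3.3 (two-sided, lmFit and eBayes with group alone and no trend) on 2 residual and 3.84 prior degrees of freedom. P-values were adjusted by Benjamini-Hochberg over all genes, at a threshold of 0.05. An exact permutation test of 2 against 2 cannot go below 0.333, so none was used. The fit was run on simulated data, and no outcome of that run is given here. Accuracy of the calls on the 4 arrays was not tested. The members and lists were chosen with earlier results of these data known. The genes named are NEUROD2, every member that passed, up to 2 further members of each role group by absolute difference with its highest-reading member, and up to 4 passing genes of each related list. Other members are given so that all 56 are accounted for. Alternatives were a replicate block, each array left out, quantile normalization, median centring, an intensity trend, a filter on low values, the mean of probe sets, and every probe set tested on its own.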

Additional observations from a re-analysis of the deposited data

How the results depend on the processing

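The count of 11 matrix genes was 12 with median centring and 13 with quantile normalization or the mean of probe sets, and the same 11 passed in each. It was 17 with an intensity trend (2056 of all genes, 20 related genes) and 17 of 33 when only genes no dimmer than the median were fitted (2081 of all genes, 17 related), where fewer genes were tested. Replicate numbers are shared between the groups, but nothing in the labels pairs them, and the same-numbered deviations correlated at 0.08. With the replicate number as a block, 5 matrix genes (GPC6, FN1, TNC, TGFBI, MATN2 and LOXL1 not passing, adjusted p from 0.0501 to 0.0709), 335 of all genes (327 of the 864) and 5 related genes passed. The 5 were 4 of the 8 (CEMIP, IGFBP7, P3H2 and PCOLCE2) and CTHRC1, with 0 higher, so that TNFAIP6, the 1 related gene that rose, did not pass (adjusted p = 0.0871). With single arrays left out, matrix calls ran from 0 to 1, all genes from 0 to 66 (0 without either control array, 57 and 66 without NeuroD2 replicate 1 and 2), and related genes from 0 to 1. The smallest adjusted p over all genes was then 0.141 (control replicate 1 left out) or 0.133 (control replicate 2 left out).

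The median difference of -0.059 was -0.022 with centring, which moved the median of all genes to 0.037, and -0.19 with the filter on dim genes. It ran from -0.14 to -0.038 with arrays left out. NEUROD2 differed by 1.97 to 2.42 with arrays left out, and did not pass when control replicate 1 (2.25) or control replicate 2 (2.14) was the one removed. No named gene's call reversed. The replicate block and the leave-one-out fits have fewer residual degrees of freedom, and the leave-one-out fits take the spread from 1 group alone. Causes of the changes in calls were not tested.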
